A study of Mus musculus with 72 samples.

Results

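The mitochondrial ribosome proteins are described here through the 77 protein-coding genes whose symbols start with *Mrpl* or *Mrps* and whose mean normalized read count over the 72 mouse RNA-Seq libraries was above 5. They were chosen by name and level alone, out of 55401 genes in the tables. A further gene of that name, *Mrpl53*, was listed at 0 in every library and is not a member (88.0% of its exon bases lie in another annotated gene on the same strand), and 5 pseudogenes of such names were left out. Of the 77 members, 50 encode proteins of the large subunit and 26 of the small subunit. *Mrps36*, despite its symbol, encodes a protein of the alpha-ketoglutarate dehydrogenase complex and was kept because the rule goes by name. Proteins with a bacterial counterpart come from 46 members and proteins found only in mitochondrial ribosomes from 30. The members lie on 17 chromosomes, with 11 on chromosome 11, and their mean normalized counts ran from 124 to 2401 (median 885).

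The mice lacked *Bmal1* (gene symbol *Arntl*), a core factor of the circadian clock, in the whole body (KO), and were compared with WT mice and with KO mice that carried an AAV9 vector with HA-tagged mouse *Bmal1* (KO+AAV). The vector was given shortly after birth and its transgene is driven all day by the CK6 promoter, which is active in fast skeletal muscle fibers and, by the study's methods, gave no transgene expression in the soleus. Gastrocnemius was taken at 10 weeks from 6 WT, 6 KO, and 7 KO+AAV mice and at 40 weeks from 5 of each. A control experiment at 10 weeks used gastrocnemius of 3 KO mice given the vector with GFP in place of *Bmal1* (KO+GFP) and 3 control KO mice. Lung, heart, liver, and white fat came from 4 KO and 4 KO+AAV mice at 40 weeks, with no WT libraries of these tissues analysed here. The 40-week KO libraries can only come from animals that had survived to that age.

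Mitochondria keep their own ribosomes, which translate the few proteins encoded by mitochondrial DNA, core subunits of the respiratory chain and of ATP synthase. The small subunit binds the mRNA and decodes it, and the large subunit joins amino acids and releases the new protein near the inner membrane. The 2 ribosomal RNAs of these particles are transcribed from mitochondrial DNA, whereas every mitochondrial ribosome protein is encoded in the nucleus, made on cytosolic ribosomes, and imported. Skeletal and cardiac muscle are rich in mitochondria, and promoters of such nuclear genes are known for binding sites of NRF1, of ETS factors such as GABP, and of YY1.

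To show what the start regions of the members look like, windows from 250 bases before to 50 bases after the transcription start were taken from RefSeq (GRCm38.p6), which gave 74 windows for 68 members. The letters CCGGAAG, read by ETS factors, were present on either strand in 33.8% of member windows and in 8.86% of all 32851 windows. The YY1 letters AAGATGGC were present in 16.2% of member windows and 2.75% of all, and the NRF1 letters GCGCATGC in 10.8% and 2.71%. At least 1 of these 3 motifs was found in 50% of member windows and in 13.3% of all windows. The E-box CACGTG, which BMAL1 and CLOCK can bind, was present in 9.46% of member windows, those of *Mrpl2*, *Mrpl20*, *Mrpl36*, *Mrpl37*, and *Mrps18c*, and in 7.15% of all. The ERR letters TCAAGGTCA were in 0 member windows and in 0.423% of all. The motifs were chosen with results of these data known, a match is only a match of letters, and the NRF1 letters overlap their own reverse complement in part of the matches. The 100 bases before the start are printed, 5′ to 3′ on the gene's strand, with the motif letters in capitals, for members described below. An ETS match is shown for *Mrps27*, which was lower in WT than in KO muscle at both ages, for *Mrps18a*, and at 2 places for *Mrpl43*.
Mrps27 (chr13:99344686-99344785, + strand, ETS): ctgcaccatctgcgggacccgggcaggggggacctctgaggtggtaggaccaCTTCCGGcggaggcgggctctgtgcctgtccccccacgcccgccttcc
Mrps18a (chr17:46110904-46111003, + strand, ETS): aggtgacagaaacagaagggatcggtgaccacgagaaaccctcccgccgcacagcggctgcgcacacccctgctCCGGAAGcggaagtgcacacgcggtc
Mrpl43 (chr19:45006443-45006542, - strand, ETS): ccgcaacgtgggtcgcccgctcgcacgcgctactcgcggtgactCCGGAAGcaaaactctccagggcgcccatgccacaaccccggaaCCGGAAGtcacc
Repeated NRF1 letters are shown for *Mrpl32*, and the E-box for *Mrpl20* and *Mrpl36*, the latter with YY1 letters nearby.
Mrpl32 (chr13:14613038-14613137, - strand, NRF1): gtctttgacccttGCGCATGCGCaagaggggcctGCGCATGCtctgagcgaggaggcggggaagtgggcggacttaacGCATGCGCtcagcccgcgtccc
Mrpl20 (chr4:155802778-155802877, + strand, E-box): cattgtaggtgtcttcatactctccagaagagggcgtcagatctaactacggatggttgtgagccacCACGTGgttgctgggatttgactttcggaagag
Mrpl36 (chr13:73330909-73331008, + strand, E-box and YY1): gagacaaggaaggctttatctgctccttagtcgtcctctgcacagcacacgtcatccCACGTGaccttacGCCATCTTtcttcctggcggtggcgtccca

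Reads counted on genes were 6754312 to 50755829 per library, with the smallest totals in the GFP experiment and 9325122 to 13610317 in the 40-week gastrocnemius. Counts of *Arntl*, which also cover regions outside the deletion, were 402.5 to 633.9 in 10-week WT and 196.1 to 296.5 in 10-week KO libraries. In 10-week KO+AAV they were 169.3 to 281.1. At 40 weeks they were 479.9 to 607.9 in WT, 307.5 to 1039 in KO, and 268.1 to 358.6 in KO+AAV. The KO+AAV values lay within or below the KO ranges, so the transgene did not show in these counts. The library labelled KO replicate 2 of 40 weeks held the highest value. Its *Dbp*, a clock output gene named after its values were seen, was 32.2 (WT, 560 to 877). Where a named member's call was lost without this library, both values are given. Fast muscle markers were abundant in every gastrocnemius library. Slow muscle markers summed to 113 to 1843 RPM (reads scaled to 1000000 counted on genes) in 40-week WT and 687 to 11218 RPM in 40-week KO, with the highest value in replicate 3. All 8 of them had a higher median in KO, and the defining gene *Myh7* ran from 1.9 to 458 RPM in WT and 43.4 to 3561 RPM in KO. KO heart replicate 2 held 30695 RPM of liver markers, and KO white fat replicate 2 held 25797 of epididymis markers. Members were tested with limma on log2(normalized count + 1), and called at *P* under 0.01. Every log2 difference below is on that scale, with its *P* adjusted over all genes tested where stated. The tissue is a mixture of cells, so fewer cells of a type and less RNA per cell cannot be told apart.

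Compared per length, as RPKM (recovered reads over mRNA length and library total), the levels of the 77 members in gastrocnemius spanned 51.0-fold. Their median was 24.8 RPKM. The most abundant were *Mrpl42*, at 190 ± 28.3 RPKM (SD over 34 libraries), *Mrps21*, at 115 ± 13.4, and *Mrpl30*, at 108 ± 10.1. The least abundant were *Mrps35* at 3.73 ± 0.59, *Mrps18c* at 4.21 ± 1.30, and *Mrpl19* at 4.35 ± 0.96 RPKM, and these 3 lay within each other's spread. The order depends on the length used, since Spearman's rho between levels by mRNA length and by the union of exons was 0.788, and *Mrpl42* ranked 1 by the former and 10 by the latter. Across tissues the order was largely shared, with Spearman's rho between gastrocnemius and heart of 0.904, liver 0.817, white fat 0.795, and lung 0.784 over the 77 members, which share gene lengths.

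Heart held more of these transcripts than liver. Summed over the members, the level was 2931 to 4064 RPM in KO heart and 3506 to 3879 in KO+AAV heart, against 2332 to 2687 and 2402 to 2609 in liver. Without KO heart replicate 2, the ranges of 7 heart and 8 liver libraries did not overlap for 45 members that were higher in heart and 11 that were lower. Among all genes, 36% were higher and 25.2% lower without overlap. *Mrps23* stood farthest toward heart, with 128 RPKM in heart and 20.3 in liver, a log2 ratio of 2.66. *Mrps36* followed with 69.4 and 14.4 RPKM and *Mrpl42* with 259 and 57.6. *Mrps10*, *Mrpl52*, and *Mrpl27* stood farthest toward liver, with log2 ratios of -1.01, -0.91, and -0.64. The plot of heart against liver levels shows these genes away from the diagonal. *Mrps6*, of the small subunit, had a pattern of its own: 4.36 RPKM in gastrocnemius, 5.98 in liver, 15.2 in heart, 16.7 in lung, and 62.7 in white fat.

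**Figure D1:**
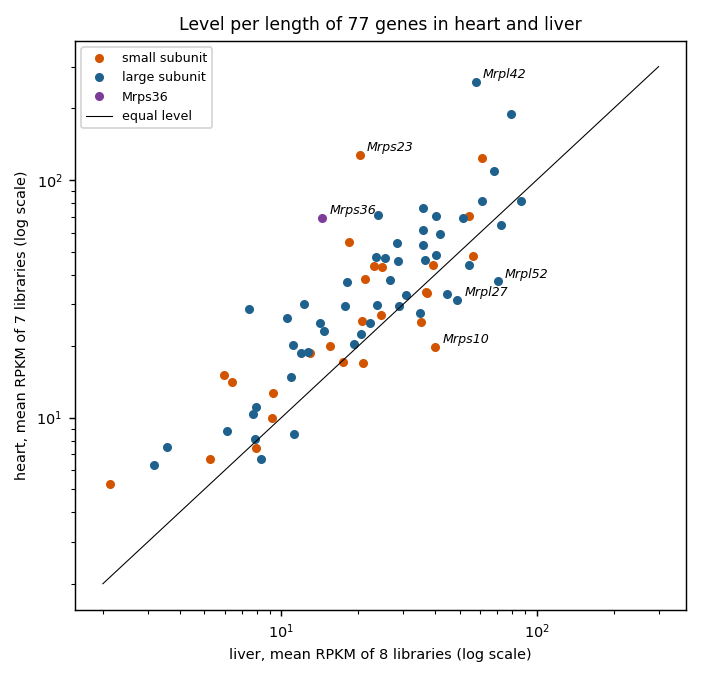
Level of each of the 77 members in liver (x axis, mean RPKM over 8 libraries, log scale) and heart (y axis, mean RPKM over 7 libraries, log scale), with the line of equal levels. Most points lie above the line, with Mrps23 (128 RPKM in heart, 20.3 in liver) far above it and Mrps10 (19.8 and 40.0) below it.

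At 10 weeks, mitochondrial ribosome protein transcripts were on balance lower in WT than in KO muscle. The members' median log2 difference was -0.128, or -8.51%, beside -0.007 for all 16199 genes tested, and 66 members were lower and 11 higher whatever their *P*. Calls were few: 9 members fell below KO in WT and 1 was higher, where 5.15% of all genes were called lower and 5.7% higher. After adjustment over all genes, 5 lower and 1 higher remained under 0.05. The small subunit contributed 6 of its 26 members to the lower calls and the large subunit 3 of 50. Sequencing was split between ICBR and Novogene at this age, and within the ICBR libraries alone 0 members were called and the median was -0.11, while within Novogene 6 were called lower and 1 higher with a median of -0.15. Slow muscle markers summed to 171 to 1292 RPM in WT and 140 to 4342 RPM in KO at this age, heart markers to 122 to 753 and 394 to 2387 RPM, and lymphocyte markers to 55.3 to 122 and 87.3 to 152 RPM. Their part was not tested.

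*Mrps31* (chr8:22411361-22429665), *Mrps27* (chr13:99344786-99415562), and *Mrps23* (chr11:88204388-88211507) had the smallest *P* among the lower members, and all 3 encode mitochondria-specific proteins of the small subunit. *Mrps31* counted 270.8 to 381.8 (median 310) in WT and 378.2 to 455.7 (median 424.7) in KO libraries, which overlapped only between 378.2 and 381.8. Its log2 difference was -0.38 ± 0.093 (SE, adjusted *P* = 0.00676). *Mrps27*, a protein with an RNA-binding helical repeat, counted 443.7 to 547.3 (median 463.1) in WT and 521.8 to 692.8 (median 586.5) in KO, with 1 WT library, replicate 4, inside the KO range. The log2 difference was -0.35 ± 0.088 (adjusted *P* = 0.01003), and 24.2% of its exon bases are shared with 6430562O15Rik on the opposite strand. *Mrps23* counted 798.9 to 1180 (median 1036) in WT and 1138 to 1566 (median 1360) in KO, for a log2 difference of -0.40 ± 0.10 (adjusted *P* = 0.0104).

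*Mrpl16* (chr19:11770391-11774960), whose protein lies close to the catalytic center of the large subunit, was the only member whose WT and KO ranges were apart at 10 weeks. It counted 496.3 to 631.3 (median 597) in WT and 646.7 to 764.1 (median 719.9) in KO, and the log2 difference was -0.31 (adjusted *P* = 0.0344). *Mrpl36*, one of the smallest ribosomal proteins, fell by 0.29 on the log2 scale (adjusted *P* = 0.0550). *Mrpl48* (chr7:100545751-100608301) was the member that was higher in WT. It counted 715.4 to 1036 (median 837.1) in WT and 472.1 to 810.6 (median 656.9) in KO, with overlap, and the log2 difference was 0.44 ± 0.12 (adjusted *P* = 0.0155). *Rab6a*, which shares 8.68% of the *Mrpl48* exon bases from the opposite strand, was also higher in WT, by 0.40 on the log2 scale (adjusted *P* = 0.00345), and its part in the *Mrpl48* value was not tested. *Arntl* lies on the same chromosome as *Mrpl48*, and the part of DNA linked to the deleted gene was not tested.

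At 40 weeks more members were called between WT and KO muscle, while 64 were lower and 13 higher in WT whatever their *P*. WT was called lower than KO for 29 of the 77 and higher for 2, against 10.9% and 11.5% of all genes. Adjusted over all genes, 31 were lower and 2 higher. The members' median log2 difference was -0.209, or -13.5%, and that of all genes was 0.011. Ranges of the 5 WT and 5 KO libraries did not overlap for 23 members, and the share of all genes without overlap was not counted here. Lower calls took in 21 of 50 large subunit and 8 of 26 small subunit members, and 15 of 30 mitochondria-specific members (median -0.302) beside 14 of 46 with a bacterial counterpart (median -0.183). Without the library labelled KO replicate 2, 30 were called lower and 2 higher. Without KO replicate 3, which had the most slow muscle marker reads and the highest summed level of the members (3394 RPM), 27 were called lower and 2 higher. In a fit of these 2 groups alone, 22 were called lower and 2 higher. Under the 21 alternatives run, 14 members kept their call in each: *Mrpl9*, *Mrpl14*, *Mrpl16*, *Mrpl37*, *Mrpl43*, *Mrpl45*, *Mrps2*, *Mrps18a*, *Mrps18b*, *Mrps23*, *Mrps30*, and *Mrps34* lower, and *Mrpl23* and *Mrpl48* higher. The slow muscle markers, higher in KO as given above, move with this comparison. So does the sum of 7 heart markers (35.3 to 56.3 RPM in WT, 131 to 298 in KO), of which *Actc1* made up most and *Myl7*, *Nppa*, and *Tnni3* were at or near 0, with 1.0 RPM as their highest value in either group. Lymphocyte markers were lower in KO without overlap (84.8 to 136 RPM in WT, 11.6 to 81.3 in KO). *Ighm* gave nearly all of these reads, and *Cd3e* counted 1.6 to 2.0 RPM in WT and up to 0.43 in KO. Their part in the members' values was not tested.

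**Figure D2:**
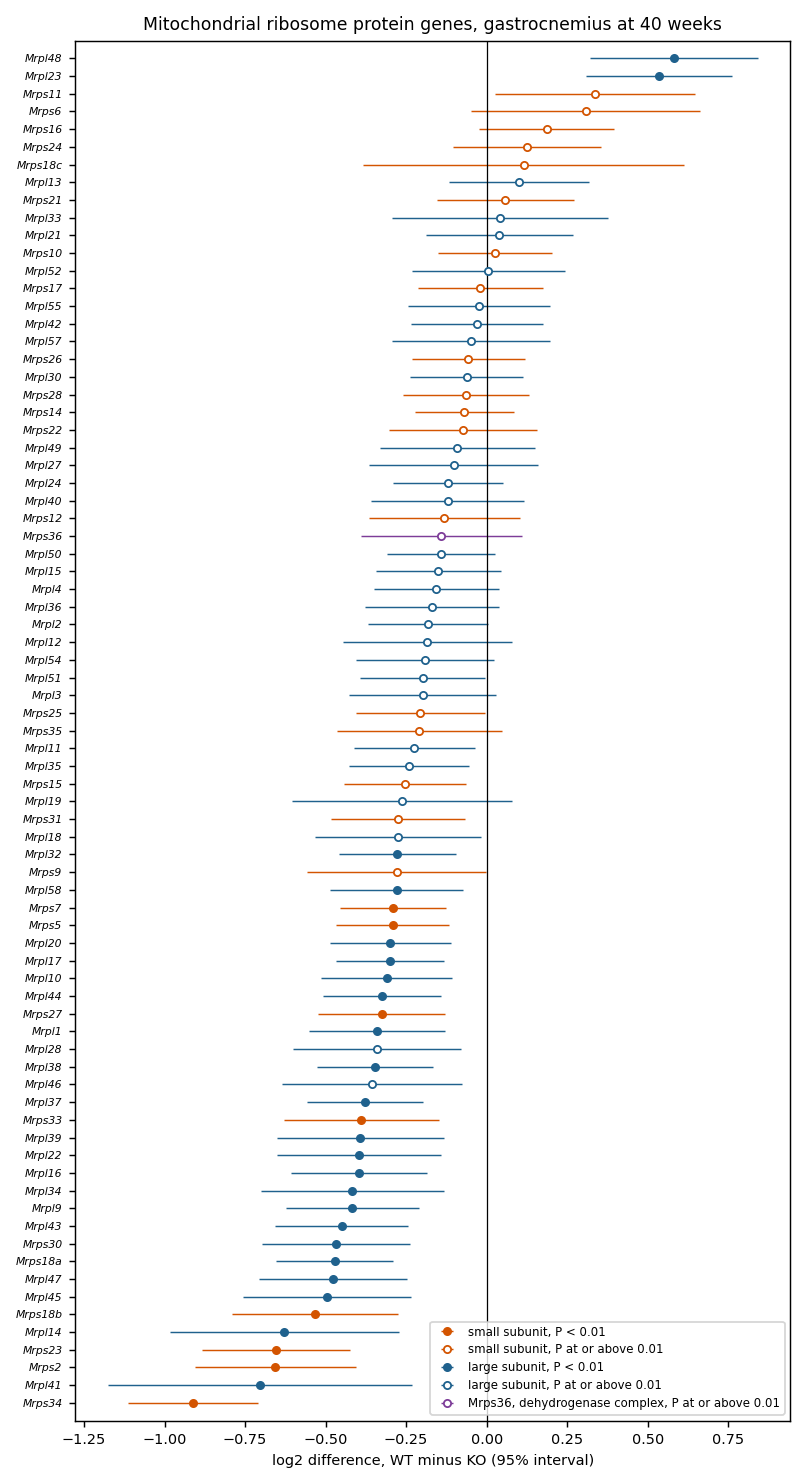
Log2 difference of WT minus KO at 40 weeks for each of the 77 members (x axis), with 95% intervals from limma; filled points have P under 0.01. All but 13 members lie left of 0, from Mrps34 at -0.91, and Mrpl48 and Mrpl23 lie at the right end.

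*Mrps34* (chr17:24895116-24897502), whose protein is needed for a stable small subunit, had the smallest *P*. Its 5 WT libraries counted 588.6, 708, 743.3, 716.2, and 715.9. The 5 KO libraries counted 1362, 1494, 1461, 1117, and 1136. All WT values were well below all KO values, the log2 difference was -0.91 ± 0.099 (adjusted *P* = 4.2e-08), and the difference stayed between -0.969 and -0.839 under the 21 alternatives run. Most of the *Mrps34* exon bases lie under other genes, 63.4% under *Mapk8ip3* on the opposite strand and 37.0% under *Nme3* on the same strand. *Nme3* was listed at 0 in every gastrocnemius library. *Mapk8ip3*, a transport scaffold protein of neurons, was itself lower in WT (1153 ± 86.9 and 1679 ± 150 counts), by 0.54 on the log2 scale (adjusted *P* = 0.000112), and its part in the *Mrps34* value was not tested.

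*Mrps23* counted 696.8, 1040, 831.8, 913.2, and 966 in WT and 1212, 1418, 1553, 1310, and 1466 in KO. No WT library reached the lowest KO library, and the log2 difference was -0.65 ± 0.11 (adjusted *P* = 6.61e-05). None of its exon bases lie under another annotated gene. *Mrps2* (chr2:28468066-28471178), a small subunit protein with a bacterial counterpart, counted 216.5, 261.9, 251.3, 193.9, and 267.3 in WT and 401.7, 408.3, 351, 317.7, and 395.8 in KO. Again the groups were apart, with a log2 difference of -0.66 ± 0.12 (adjusted *P* = 0.000186).

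*Mrps18a* (chr17:46110986-46128910) is 1 of 3 paralogs that descend from a single bacterial protein, and its product sits in the large subunit in spite of the symbol. It counted 576.7, 566.4, 635.4, 634.9, and 578.3 in WT and 858.4, 893.6, 841.4, 754.9, and 805.4 in KO. The groups did not overlap and the log2 difference was -0.47 ± 0.089 (adjusted *P* = 0.000208). *Mrps18b* was also lower in WT, by 0.53 on the log2 scale (adjusted *P* = 0.00246), with 30.5% of its exon bases under Gm16279 on the opposite strand. The third paralog, *Mrps18c*, counted 42.6 ± 12.8 in WT and 40.0 ± 13.6 in KO (SD), a log2 difference of 0.11 (adjusted *P* = 0.785). Its product is the paralog that keeps the bacterial position in the small subunit. Whether the 3 differ in their response was not tested.

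Among the other lower members of the large subunit, *Mrpl37* (chr4:107055874-107066868) counted 898.5 to 1117 in WT and 1274 to 1480 in KO (log2 difference -0.38, adjusted *P* = 0.00195), and *Mrpl43*, which shares 33.4% of its exon bases with the mitochondrial helicase gene *Twnk* on the opposite strand, fell by 0.45 (adjusted *P* = 0.00146). *Twnk* itself fell by 0.27 (adjusted *P* = 0.0200). *Mrpl45*, which anchors the particle at the inner membrane, fell by 0.50 (adjusted *P* = 0.00478). *Mrpl44*, a protein with a ribonuclease III fold, fell by 0.32 (adjusted *P* = 0.00839). *Mrpl17* had the tightest KO values of this group, 695 ± 11.9 counts, against 566 ± 51.3 in WT, and its log2 difference was -0.30 (adjusted *P* = 0.00771). *Mrpl47* fell by 0.48 (adjusted *P* = 0.00226), and *Ndufb5*, which shares 24.2% of its exon bases from the opposite strand, fell by 0.42 (adjusted *P* = 0.00649).

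The call of *Mrpl41* (chr2:24974117-24975098) rested on the library labelled KO replicate 2. It counted 225.4, 312, 221.2, 269, and 278.2 in WT and 290.3, 1295, 357.1, 308.7, and 324.1 in KO. The value of 1295 was far above the other KO libraries, and the groups overlapped. With that library the log2 difference was -0.70 (adjusted *P* = 0.0262), and without it -0.30 (adjusted *P* = 0.079), which is not a call. The call was also lost without WT replicate 1 or 3.

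The 2 members that were higher in WT are both proteins of the large subunit. *Mrpl48* counted 948.9, 1025, 1081, 1062, and 984.7 in WT and 709.8, 494.3, 740.3, 713.8, and 790.2 in KO, without overlap. Its log2 difference was 0.58 ± 0.13 (adjusted *P* = 0.00119). The overlapping gene *Rab6a* was higher in WT here too, by 0.40 (adjusted *P* = 0.00327), and its part was not tested. *Mrpl23* (chr7:142532686-142540747), a protein at the mouth of the exit tunnel, counted 719.1, 834.6, 842.5, 849.1, and 679.9 in WT and 614.9, 510.4, 421.5, 505, and 682.6 in KO, so the lowest WT library lay just under the highest KO library. Its log2 difference was 0.53 ± 0.11 (adjusted *P* = 0.000653). Both members lie on the chromosome that holds *Arntl*, and the part of DNA linked to the deleted gene was not tested.

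**Figure D3:**
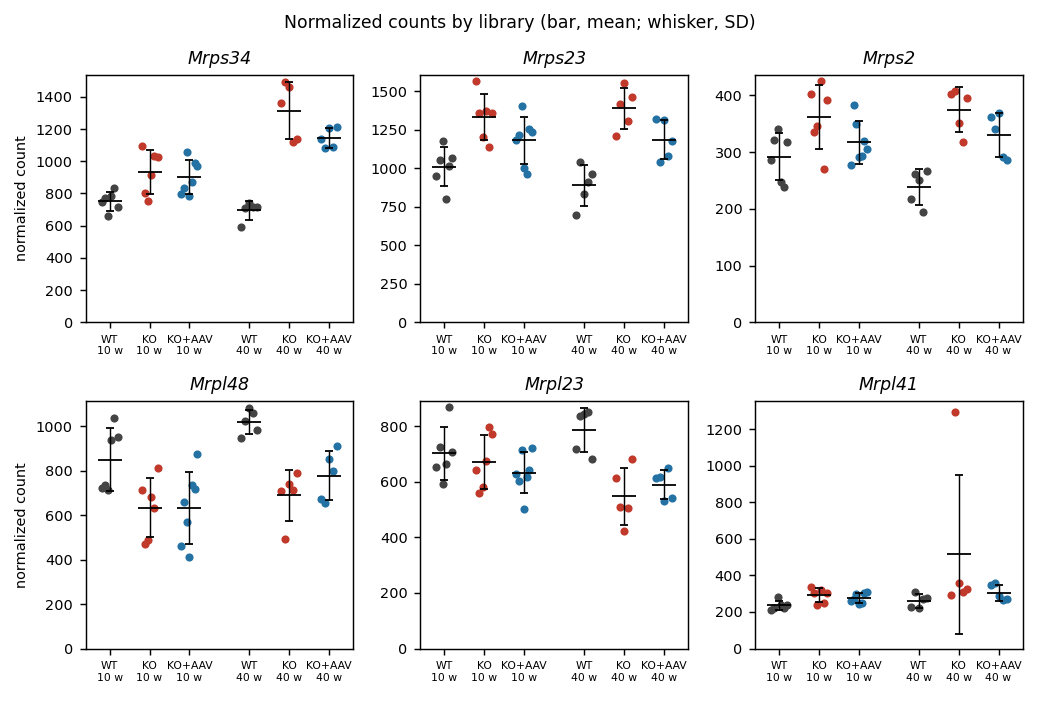
Normalized counts of 6 members in the gastrocnemius libraries of both ages, for WT, KO, and KO+AAV mice (points, 1 per library; bars, group mean; whiskers, SD). Mrps34, Mrps23, and Mrps2 sit lower in WT than in KO at 40 weeks without overlap. Mrpl48 sits higher in WT without overlap, Mrpl23 higher with a slight overlap, and Mrpl41 has 1 KO library at 1295.

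WT and KO of the 2 ages share no library, but both ages were fitted in 1 model with a common estimate of spread. Of the 10 members called at 10 weeks, 8 were called in the same direction at 40 weeks: *Mrpl16*, *Mrpl58*, *Mrps2*, *Mrps23*, *Mrps27*, *Mrps33*, and *Mrps34* lower and *Mrpl48* higher. These were 80% of the 10-week calls and 25.8% of the 31 at 40 weeks. The share of all genes called alike at both ages was not counted, so these percentages are not read as a result about the members. At 10 weeks the call of *Mrps2* (adjusted *P* = 0.0921) was kept under 7 of 14 alternatives and that of *Mrps33* (adjusted *P* = 0.0666) under 11. The 40-week call of *Mrpl58*, a peptidyl-tRNA hydrolase built into the large subunit, was kept under 11 of 21 alternatives. *Mrpl36* and *Mrps31* were called at 10 weeks and not at 40 weeks. Over all members, 61 were lower and 8 higher in WT at both ages. *Mrpl3* and *Mrpl4*, large subunit members that the study names for their proteins, were not called at either age. *Mrpl3* counted 719 ± 67.8 in WT and 783 ± 128 in KO at 10 weeks (log2 difference -0.11, adjusted *P* = 0.640) and 708 ± 66.7 and 814 ± 93.0 at 40 weeks (-0.20, adjusted *P* = 0.205). *Mrpl4* counted 576 ± 41.3 and 634 ± 65.3 at 10 weeks (-0.13, adjusted *P* = 0.447) and 619 ± 72.5 and 688 ± 58.7 at 40 weeks (-0.16, adjusted *P* = 0.248).

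Muscle re-expression of *Bmal1* gave few calls among the members. At 10 weeks 0 of 77 members were called between KO+AAV and KO, where 2.63% of all genes were. Under an unadjusted *P* of 0.05 there were 10, and edgeR and DESeq2 on the recovered reads also called 0. The median log2 difference was -0.115, with 69 members lower in KO+AAV and 8 higher, beside 0.009 for all genes, and it was -0.12 within ICBR and -0.09 within Novogene. Lymphocyte markers summed to 30.8 to 87.6 RPM in KO+AAV and 87.3 to 152 in KO at this age, heart markers to 774 to 2835 and 394 to 2387, and macrophage markers to 29.1 to 220.4 and 17.4 to 51.3. Their part was not tested. At 40 weeks 4 members were called lower in KO+AAV than in KO and 1 higher, against 1.23% and 2.01% of all genes, and 0 remained after adjustment over all genes. The median log2 difference was -0.132, with 66 lower and 11 higher, beside 0.016 for all genes. Leaving out 1 library at a time gave 2 to 7 calls, and the fit of these groups alone gave 1. Slow muscle markers summed to 323 to 2353 RPM in 40-week KO+AAV, heart markers to 46.1 to 376 RPM, and lymphocyte markers to 6.19 to 48.7 RPM, beside the KO values above, and their part was not tested. These comparisons share the KO libraries with WT versus KO, so the values of each are given side by side and not counted together.

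*Mrpl16* had the smallest *P* at 40 weeks. Its KO libraries counted 623.2, 659, 660.6, 662.1, and 809.5, the KO+AAV libraries 616.8, 499.6, 493.6, 515.8, and 538.1, and the WT libraries 535.2, 540.1, 476.1, 433.2, and 615.8. Both other groups lay below all KO libraries, with a log2 difference of -0.36 ± 0.10 for KO+AAV versus KO (adjusted *P* = 0.170) and -0.40 for WT versus KO (adjusted *P* = 0.00528). The call of *Mrpl16* against KO+AAV was kept under the 21 alternatives. *Mrpl37* counted 1188, 992.3, 1215, 1021, and 1087 in KO+AAV, all below the KO range of 1274 to 1480, and the log2 difference was -0.29 ± 0.088 (adjusted *P* = 0.196). *Mrps27* counted 373.3 to 500.5 in KO+AAV and 487.1 to 597.1 in KO, with 2 KO+AAV libraries above the lowest KO library (-0.28, adjusted *P* = 0.267). That call was lost without KO replicate 3, 4, or 5 and without KO+AAV replicate 2, 4, or 5.

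*Mrps36*, of the dehydrogenase complex, was called lower in KO+AAV than in KO (log2 difference -0.36, adjusted *P* = 0.264), and WT versus KO gave -0.14 (adjusted *P* = 0.446). Its call was lost without KO replicate 1, 3, or 5 or KO+AAV replicate 2. *Mrps6* was the member called higher in KO+AAV, at 51.9 to 73.2 counts and 32.2 to 55.3 in KO, which overlapped (0.48, adjusted *P* = 0.304), and the call was kept under 6 of 21 alternatives, edgeR and DESeq2 not among them. Without the library labelled KO replicate 2 it was 0.50 (adjusted *P* = 0.328) and not a call. *Mrps34* counted 1138, 1085, 1206, 1091, and 1214 in KO+AAV, in or just under the lower part of the KO range, and its log2 difference from KO was -0.19 (adjusted *P* = 0.550). *Mrpl3* gave -0.12 at 10 weeks and -0.06 at 40 weeks, and *Mrpl4* gave -0.14 at both ages, and neither was called. The study's proteomics at 10 weeks lists both proteins as higher in KO+AAV than in KO, a different measure from these RNA counts.

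WT was also compared with KO+AAV muscle, and at 10 weeks the members were called less often than all genes. At 10 weeks WT was called lower than KO+AAV for 2 members, *Mrps34* and *Mrps31*, and higher for *Mrpl48*, against 8.75% of all genes called. Within ICBR 0 members were called in this comparison and within Novogene 1. At 40 weeks it was called lower for 12 and higher for 3, against 7.45% and 7.14% of all genes, with a median of -0.094. Lymphocyte markers, at 84.8 to 136 RPM in WT and 6.19 to 48.7 in KO+AAV, were apart at 40 weeks, and heart markers, at 35.3 to 56.3 and 46.1 to 376, overlapped. At 10 weeks heart markers were apart (122 to 753 RPM in WT, 774 to 2835 in KO+AAV). Their part was not tested. *Mrps34* showed the clearest separation (WT, 588.6 to 743.3; KO+AAV, 1085 to 1214) with a log2 difference of -0.73 (adjusted *P* = 5.82e-06). *Mapk8ip3* fell by 0.40 in this comparison (adjusted *P* = 0.00541). *Mrps23* gave -0.42 (adjusted *P* = 0.0111) and *Mrps2* gave -0.47 (adjusted *P* = 0.00939), both without overlap. *Mrpl23* (0.41, adjusted *P* = 0.0127), *Mrpl48* (0.40, adjusted *P* = 0.0359), and *Mrps24* (0.36, adjusted *P* = 0.0330) were higher in WT. The call of *Mrpl48* was lost without WT replicate 3 or KO+AAV replicate 1 or 2, and that of *Mrps24* without WT replicate 2 or 4 or KO+AAV replicate 2. *Mrps24*, the counterpart of a bacterial protein at the mRNA entry, counted 536 ± 70.6 in WT, 417 ± 42.5 in KO+AAV, and 492 ± 69.3 in KO.

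**Figure D4:**
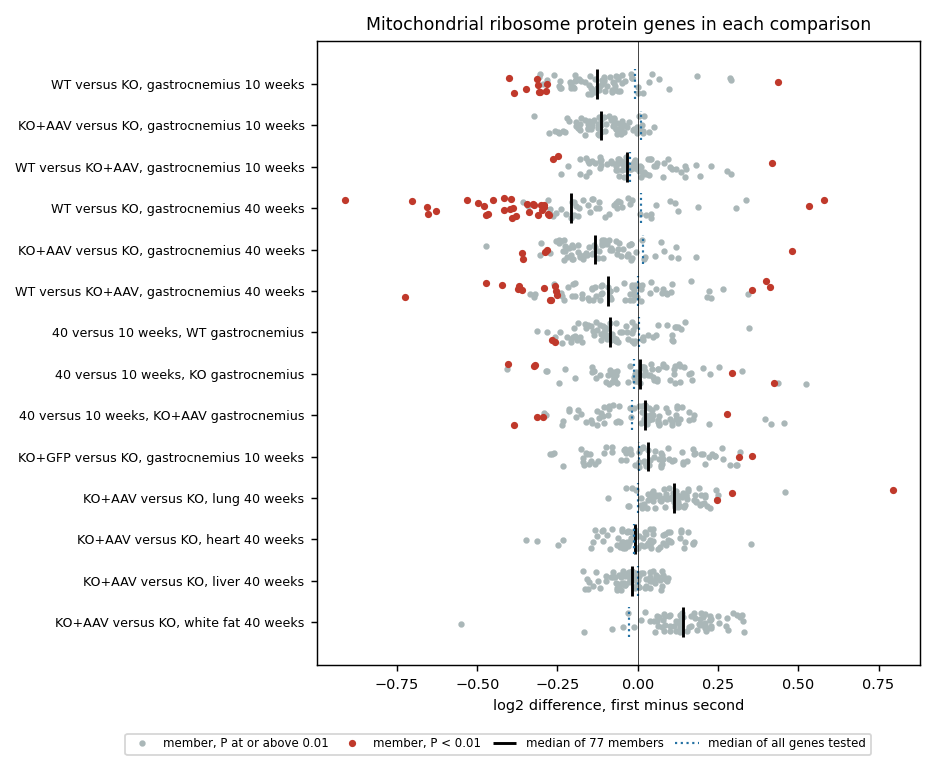
Log2 difference of every member (points) in 14 comparisons, with red points at P under 0.01, the median of the members as a black bar, and the median of all genes as a blue dotted bar. The members' median lies below 0 in each of the 3 gastrocnemius comparisons at 10 and 40 weeks and above 0 in lung (0.113) and white fat (0.142).

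Between 10 and 40 weeks the members as a group moved little. In WT muscle 2 were called lower at 40 weeks, *Mrpl20* (340.6 ± 32.1 to 276.6 ± 23.3 counts) and *Mrpl32* (336.5 ± 31.4 to 270.4 ± 20.2), where 2.27% of all genes were called, and neither passed adjustment (0.414 each) or was called when WT replicate 4 of 40 weeks was left out. In KO muscle 2 members were called higher and 3 lower, and in KO+AAV muscle 1 higher and 3 lower, where 12.1% of all genes were called in each. The medians were -0.087 for WT muscle, 0.006 for KO muscle, and 0.021 for KO+AAV muscle. All 40-week gastrocnemius libraries came from Novogene, so these contrasts rest on the site term in the model.

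*Mrps34* and *Mrps18a* were higher in KO at 40 weeks than at 10 weeks. *Mrps34* counted 754.4 to 1093 (median 969.5) in KO at 10 weeks and 1117 to 1494 at 40 weeks, without overlap (log2 difference 0.42, adjusted *P* = 0.0112). *Mrps18a* rose by 0.29 on the log2 scale (adjusted *P* = 0.0411). *Mrpl42*, *Mrpl23*, and *Mrpl36* fell in KO, and the calls of *Mrpl42* and *Mrpl36* were lost without the library labelled KO replicate 2 of 40 weeks. *Mrpl36* gave -0.32 with it (adjusted *P* = 0.0509) and -0.29 without it (adjusted *P* = 0.144). *Mrpl42* went from 2434 ± 77.4 to 1960 ± 246 counts in KO (-0.32, adjusted *P* = 0.0481, and -0.265 without that library, adjusted *P* = 0.167) and from 2169 ± 313 to 1650 ± 152 in KO+AAV (-0.39, adjusted *P* = 0.0155).

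The test of the difference itself, WT minus KO at 40 weeks against the same at 10 weeks, called 1 member in each direction, where 4.47% of all genes were called. For *Mrps34* the interaction was -0.61 ± 0.13 (adjusted *P* = 0.031): WT versus KO was -0.31 at 10 weeks and -0.91 at 40 weeks. For *Mrpl23* it was 0.47 ± 0.15 (adjusted *P* = 0.16), with WT versus KO at 0.07 and 0.53. The interaction of age with KO+AAV versus KO called 0 members by limma, with 1 at an unadjusted *P* under 0.05, against 1.08% of all genes.

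A few members differed more between the sequencing sites than between any genotypes. *Mrpl47* counted 264.7 to 416.5 (median 339.6) in the 10 ICBR libraries of 10-week gastrocnemius and 1692 to 2338 (median 1889) in the 9 Novogene libraries, a log2 difference of 2.53 in the site term. *Mrps25* counted 285.7 to 471.9 at ICBR and 626.8 to 777.2 at Novogene, a log2 difference of 0.84. For both, the ranges of the sites were apart. Both members share exon bases with a gene on the opposite strand, *Mrpl47* with *Ndufb5* (24.2%) and *Mrps25* with *Nr2c2* (69.8%). *Ndufb5* counted 2360 to 3612 at ICBR and 2659 to 4006 at Novogene. *Mrps18c* (-0.80), *Mrpl33* (-0.63), and *Mrps36* (-0.41) were lower at Novogene. In all, 7 members were higher and 8 lower at Novogene with *P* under 0.01, where 22.5% of all genes passed in either direction. *Mrpl47* ranged from 4.66 to 53.5 RPKM within that tissue, and its 3.57 RPKM in liver and 7.50 in heart come from ICBR libraries alone.

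**Figure D5:**
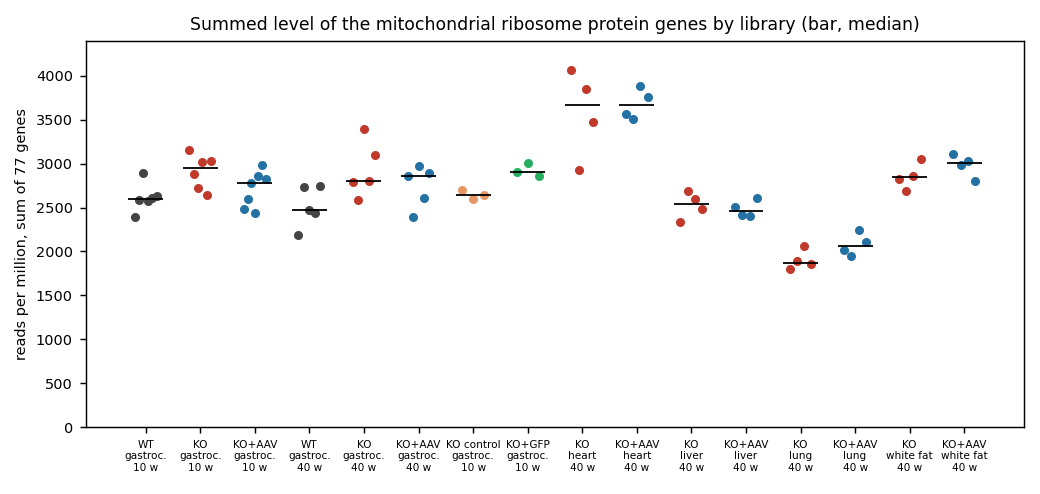
Summed level of the 77 members in each library (y axis, RPM; points, 1 per library; bars, median) for the 16 groups of the series. WT lies below KO on the median at 10 weeks (2597 and 2956) and 40 weeks (2475 and 2807), with overlap, and heart is the highest tissue.

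The genes around the mitochondrial ribosome were read from lists chosen with earlier results known. Their counts stand beside 5.15% of all genes called lower in WT at 10 weeks and 10.9% at 40 weeks, and no list was tested against the rest. Of 5 proteins of the particle without an *Mrp* symbol, 3 were called lower in WT than in KO at 10 weeks and 4 at 40 weeks. *Ptcd3*, a pentatricopeptide protein of the small subunit, counted 927 ± 112 in WT and 1401 ± 158 in KO at 10 weeks without overlap (log2 difference -0.60, adjusted *P* = 0.000233), and 779 ± 92.0 and 1085 ± 136 at 40 weeks (-0.48, adjusted *P* = 0.00304). *Gadd45gip1*, of the large subunit, counted 986 ± 94.5 and 1356 ± 100 at 40 weeks (-0.46, adjusted *P* = 0.000111). *Dap3*, a GTP-binding protein of the small subunit, gave -0.11 at 10 weeks (adjusted *P* = 0.516) and 0.05 at 40 weeks (adjusted *P* = 0.690).

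Mitochondrial aminoacyl-tRNA synthetases, which charge the tRNAs, were called lower in WT for 4 of 17 at each age, with medians of -0.178 at 10 and -0.219 at 40 weeks, where 5.15% and 10.9% of all genes were called lower. *Cars2*, which charges cysteine tRNA, gave -0.56 at 10 weeks (adjusted *P* = 3.69e-05) and -0.50 at 40 weeks (adjusted *P* = 0.000259). Of 15 translation factors 3 were called lower at 10 and 4 at 40 weeks. *Tufm*, the elongation factor that brings in charged tRNA, counted 1464 ± 118 in WT and 2111 ± 115 in KO at 40 weeks (-0.53, adjusted *P* = 0.00011), and was lower in KO+AAV than in KO by 0.32 on the log2 scale (adjusted *P* = 0.181). Of 24 assembly factors, 2 were called lower at 10 weeks and 3 lower and 1 higher at 40 weeks, near the share of all genes. Of 8 genes of mitochondrial DNA transcription and RNA stability, 0 and 2 were called lower.

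Complex I subunits, which are joined by proteins made on mitochondrial ribosomes, were called lower in WT for 10 of 36 at 10 weeks and for 12, with 1 higher, at 40 weeks, against the same 5.15% and 10.9%, with medians of -0.242 and -0.218. Of 78 cytosolic ribosomal proteins, limma called 0 at 10 weeks, with 3 at an unadjusted *P* under 0.05. At 40 weeks 6 were higher and 2 lower, where 11.5% and 10.9% of all genes were called, and the medians at the 2 ages were -0.023 and 0.045. Among RNAs of mitochondrial DNA itself, 0 of 12 mRNAs were called at either age and the large ribosomal RNA *mt-Rnr2* was higher in WT at 10 weeks, by 0.68 (adjusted *P* = 0.0344), as the small ribosomal RNA *mt-Rnr1* was at 40 weeks, by 0.64 (adjusted *P* = 0.041), a call that was lost without the library labelled KO replicate 2. Libraries were made from poly(A) RNA, which limits what counts of ribosomal RNA measure. Of 8 regulators of mitochondrial biogenesis, *Ppargc1a* was higher in WT at 40 weeks by 0.67 (adjusted *P* = 0.0094). *Myc* was lower, by 1.51 at 10 weeks (adjusted *P* = 0.000968) and 1.17 at 40 weeks (adjusted *P* = 0.0101).

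The vector with GFP in place of *Bmal1* gave 2 calls, *Mrpl45* and *Mrps9*, both higher in KO+GFP than in control KO, where 8.24% of all genes were called. *Mrpl45* counted 376.3, 402.3, and 416.5 in KO+GFP and 305.7, 312.7, and 342 in control KO (log2 difference 0.31, adjusted *P* = 0.0991). *Mrps9* counted 204.9, 205.3, and 233.8 against 156.5, 167.8, and 178.4 (0.35, adjusted *P* = 0.118). Neither pair of ranges overlapped, neither gene passed adjustment, and both calls were lost without any 1 of the KO+GFP libraries. The median of the members was 0.033, with 48 higher and 29 lower. Slow muscle markers summed to 1736 to 2211 RPM in KO+GFP and 202 to 1081 in control KO, and macrophage markers to 54.5 to 73.5 and 22.9 to 29.4. Lower in KO+GFP without overlap were lymphocyte markers (48.6 to 68.7 and 162 to 186 RPM), Schwann cell markers (50.5 to 66.6 and 124 to 154), and fast muscle markers (107974 to 112519 and 134600 to 148858). Their part in these values was not tested.

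Of the 4 tissues outside skeletal muscle, lung was the one in which limma called members. It also had the largest share of all genes called. There 3 of 77 were called higher in KO+AAV than in KO, near the share of all 21072 genes called higher (3.06%). Whatever their *P*, 71 members were higher and 6 lower, with a median of 0.113, while that of all genes was at 0 to 2 decimals. *Mrps6* counted 670.3 to 949 in KO+AAV and 327.7 to 517.3 in KO (log2 difference 0.79 ± 0.17, adjusted *P* = 0.118). *Mrpl28* counted 1575 ± 89.0 and 1327 ± 94.9 (0.25, adjusted *P* = 0.240), and *Mrpl30* counted 1756 ± 168 and 1430 ± 116 (0.29, adjusted *P* = 0.243). The ranges of all 3 were apart, and none passed adjustment. The call of *Mrps6* was kept under the 17 alternatives run, and those of *Mrpl28* and *Mrpl30* were each lost on leaving out any of 6 libraries. Heart markers summed to 1736 to 6091 RPM in KO+AAV lung and 104 to 1207 in KO lung, and slow muscle markers to 888 to 2564 and 299.8 to 767. Schwann cell markers were lower in KO+AAV lung, at 486 to 547 RPM against 600.5 to 710.3. For all 3 lists the groups were apart, and their part in these values was not tested. Over 36 complex I subunits in lung the median was 0.264, with 3 called higher.

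In heart and liver the members' medians were -0.009 and -0.017, and limma called 0 of 77 in each, with 0 at an unadjusted *P* under 0.05, against 0.0829% and 0.546% of all genes called. In white fat limma called 0, with 1 at an unadjusted *P* under 0.05, against 0.0711% of all genes. By edgeR and by DESeq2 the count was also 0 in each of these 3 tissues. *Arntl* counted 781.0 to 1231 in KO+AAV liver and 583.9 to 679.3 in KO liver, and the source of that difference was not tested. KO heart replicate 2, with its liver markers, had 11.6% of its reads from mitochondrial DNA (17.3% to 24.8% in the other KO hearts) and the lowest summed level of the members there, 2931 RPM. Without it the heart median was 0 to 2 decimals, with 0 called by limma and 0 at an unadjusted *P* under 0.05. Leaving out KO heart replicate 1 gave a median of 0.085 and leaving out replicate 4 gave -0.115. In white fat 71 members were higher in KO+AAV and 6 lower with a median of 0.142, and without KO replicate 2, the library with epididymis markers, the median was 0.04.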

How the data were processed

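RNA-Seq was measured in 72 poly(A) libraries. Alignment by the authors was with HISAT2 to GRCm38 (mm10) and counting with HTSeq. Each deposited signal value is a gene's read count over the DESeq2 size factor of its library. The GFP experiment was normalized in a table of its own, so it was tested alone, as was each tissue. The annotation release and the strand setting of the counting are not given in the sources used here, so reads in bases shared with an overlapping gene may be lost or assigned to either. Whole reads were recovered from every value (100% within 0.05 reads). Gene names, coordinates, and lengths came from GENCODE vM21.

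The main test was limma 3.58.1 (R 4.3.3) with intensity trend on log2(signal + 1) over genes with a mean above 5. The 34 gastrocnemius libraries of the main experiment entered 1 model with the sequencing site as a covariate. A gene was called at *P* under 0.01, the threshold the study used for differentially expressed genes, and *P* was adjusted over all genes tested (Benjamini-Hochberg). These *P* values measure the spread between mice of a group. The alternatives were a pseudocount of 0.5, no filter, a mean above 50, recomputed size factors, library weights, edgeR 4.0.16 and DESeq2 1.42.0 on the recovered reads, 1 site alone, no site term, 2 groups alone, a replicate block, and leaving out each library of groups of up to 5. The fits were tested on simulated data. RPKM was computed from recovered reads and mRNA length. Genes named in the text were *Mrpl3* and *Mrpl4*, the 3 called members with the smallest *P* in each direction of a comparison, the *Mrps18* paralogs, *Mrps36*, and the extremes of level; the members of other lists, site differences, overlapping neighbors, and further called members were chosen after their values were seen. The members, lists, and motifs were chosen with earlier results of these data known. Same-numbered replicates were treated as unpaired. Correlations of their deviations ran from -0.49 to 0.70, and in no comparison did every pair exceed 0.1. In white fat they were 0.52, 0.53, -0.49, and 0.70, so this check does not exclude pairing. Depth was 6754312 to 50755829 reads per library. No protein sequences were used here.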

Additional observations from a re-analysis of the deposited data

Results flagged for a closer look

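Of 77 groups of 4 to 10 libraries examined for a value far from the rest, 5 were singled out, where chance alone gives about 1 in 20. *Mrps27* counted 547.3 in 10-week WT replicate 4 and 443.7 to 463.4 in the other WT libraries. *Mrps34* counted 588.6 in 40-week WT replicate 1 and 708 to 743.3 in the others. In the library labelled KO replicate 2 at 40 weeks, *Mrpl41* counted 1295 and 290.3 to 357.1 in the other KO libraries, and *Mrpl48* counted 494.3 and 709.8 to 790.2 in the others. *Mrpl16* counted 809.5 in 40-week KO replicate 5 and 623.2 to 662.1 in the others.

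The limma test of a change in WT versus KO between 10 and 40 weeks called *Mrps34*, with an interaction of -0.607 on the log2 scale (adjusted *P* = 0.031). It also called *Mrpl23*, with 0.468, which did not pass adjustment (adjusted *P* = 0.16). Of all genes, 4.47% were called. The *Mrpl23* value was no longer called with library weights (0.375, adjusted *P* = 0.225) or without 40-week KO replicate 3 (0.379, adjusted *P* = 0.266), and that of *Mrps34* was called under the 19 alternatives run. Its adjusted *P* by limma was 0.0718 without 40-week KO replicate 2 and 0.0635 without 40-week KO replicate 3.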

How the results depend on the processing

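Of the 270 member counts recomputed under alternatives, 216 stayed within 1.5 times the count reported. No named gene changed sign where it was called in the main fit or in the alternative. Changes of sign without a call in either fit were not counted. The cause of each change was not tested, beyond that fits of fewer libraries have less to estimate the spread from. Shares of all genes called in the same fits are not given here, so these counts are not read as changes particular to the members. With library weights the members called were 26 for WT versus KO at 10 weeks (10 reported), 8 for WT versus KO+AAV at 10 weeks (3), 3 and 7 for age in KO (5) and KO+AAV (4), 1 for the interaction of age with WT versus KO (2), 1 in the GFP experiment (2), and 7 in lung (3). With ICBR libraries alone 0 were called for WT versus KO and 0 for WT versus KO+AAV at 10 weeks, and with Novogene alone 1 for the latter, 0 for age in WT (2), and 2 for age in KO+AAV. With 2 groups alone the counts were 1 for WT versus KO+AAV at 10 weeks without a site term, 1 for KO+AAV versus KO at 40 weeks (5), 9 for WT versus KO+AAV at 40 weeks (15), and 0 for age in WT and in KO+AAV. DESeq2 called 0 for age in WT and 0 in the GFP experiment, the fit with no filter 1 for KO+AAV versus KO at 10 weeks (0), and the fit without a site term 3 for KO+AAV versus KO at 40 weeks.

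The labels give no pairing beyond the replicate number, and a block for that number was fitted in 2 groups alone. It called 16 members for WT versus KO at 40 weeks (24 in the same fit without the block, 31 reported), 1 for KO+AAV versus KO (1 without), 5 for WT versus KO+AAV (9 without), and 0 in the GFP experiment.

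Leaving out 1 library at a time called 24 to 32 members for WT versus KO at 40 weeks, 2 to 7 for KO+AAV versus KO (2 without KO replicate 3 or 5, 3 without KO replicate 1 or KO+AAV replicate 2, 4, or 5), and 9 to 15 for WT versus KO+AAV (9 without WT replicate 1 or KO+AAV replicate 1 or 5). It called 0 to 2 for age in WT (0 without 40-week replicate 4), 3 to 7 for age in KO (3 without 40-week replicate 2), 2 to 5 for age in KO+AAV (2 without 40-week replicate 3), 1 to 3 for the interaction (1 without 40-week KO replicate 3), 0 to 1 in the GFP experiment (0 without KO+GFP replicate 1 or 2), and 1 to 4 in lung (1 without KO replicate 1, 2, or 4 or KO+AAV replicate 3 or 4).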
